A study of Mus with 18 samples.

Results

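The replication-dependent histone genes were followed through 6 treatments of RAW264.7, a mouse macrophage-like cell line. They were taken by symbol from the deposited count table, as every gene named in the H1f (1 to 5), H2ac, H2bc, H3c and H4c series. This gave 66 of 35510 genes: 5 linker H1 genes, 18 H2A, 18 H2B, 12 H3 and 13 H4 genes. Expression was measured by RNA sequencing in 18 libraries, 3 per group. The groups were LPS + PPLG-4V-SA, LPS + PPLG-2V-SA, LPS + PPLG-SA, LPS + POx-SA, LPS alone and untreated cells. Every group but the untreated one therefore received LPS, the bacterial lipopolysaccharide that activates macrophages through Toll-like receptor signalling, and 4 of them also received a polymer that the series describes as sialic. The study asked how LPS and these polymers change gene expression. The sources used here give no doses, exposure times or meaning of the polymer codes, nor whether replicates were separate cultures, so the p-values measure the spread between these libraries only.

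Replication-dependent histone genes supply the bulk of new chromatin protein. They are short, mostly intronless genes in clusters, transcribed mainly in S phase, when the linker histone H1 and the core histones H2A, H2B, H3 and H4 are needed to package new DNA. Their transcripts usually end in a conserved stem-loop that is bound by the protein SLBP, not in a poly(A) tail, and they are quickly degraded when DNA synthesis stops. A library made by poly(A) capture therefore holds only the minority of these transcripts that carry a tail, and a shift in the tailed share changes the count as a shift in transcription does. The labels give total RNA as the molecule. Whether poly(A) capture or ribosomal RNA depletion followed is not stated.

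The members are close copies of each other, which limits what a single symbol can say. Of the 66 genes, 62 were found by symbol in the RefSeq gene table (assembly GRCm38.p6), 52 of them in the large cluster and 10 in the small one; H2ac25, H2bc24, H2bc27 and H4c16 were not matched. For 31 members RefSeq lists at least 1 other member among the synonyms, and the handling of reads shared by such copies is not stated. H2ac18 and H2ac19, adjacent genes of the small cluster, show the problem: H2ac18 had 2.07, 2.27 and 0 CPM (counts scaled to a common library size) in LPS + PPLG-4V-SA libraries while H2ac19 had 2.51, 3.08 and 4.44 CPM. Their sum was steadier, at 4.58, 5.35 and 4.44 CPM in the same libraries. In LPS + PPLG-SA libraries H3c14 had 1.33, 0.582 and 0 CPM and its copy H3c15 had 0.419, 0.323 and 1.46 CPM. Values of H2ac18, H2ac19, H3c14 and H3c15 taken singly are therefore uncertain wherever they are given below, and sums of the pairs are given with the main comparisons.

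Library totals ran between 9755591 and 19759549 counts, with the 3 untreated libraries the shallowest. All 14 macrophage markers examined were detected in every group, summing to 5488 to 5892 CPM in LPS + PPLG-4V-SA, 4505 to 5083 in LPS + PPLG-2V-SA, 5247 to 5483 in LPS + PPLG-SA, 6208 to 8810 in LPS + POx-SA, 7575 to 8662 in LPS and 12875 to 13955 CPM in untreated libraries. The macrophage markers did not move together. Mean Lyz2 was 7742 CPM in untreated, 3747 in LPS and 839 to 863 CPM in the PPLG groups. Mean Adgre1 was 65.4 CPM in untreated, 48.8 in LPS and 363 to 585 CPM in the PPLG groups. Of 11 neutrophil and mast cell markers, Elane, Ngp, Cpa3, Kit and Mcpt4 were at 0 in every library. The summed list, which was almost all S100a8, was lower than in untreated cells in every LPS-treated group, as the histones were, and lower in LPS + POx-SA than in LPS, where the histone sum was higher. It stood at 0.108 to 0.465 CPM in LPS + PPLG-4V-SA, 0 to 0.0559 in LPS + PPLG-2V-SA, 0 to 0.0699 in LPS + PPLG-SA, 36.1 to 63.8 in LPS + POx-SA, 150 to 255 in LPS and 2396 to 2655 CPM in untreated libraries; its part in the histone results was not tested. Lymphocyte markers summed to 0.584 to 2.68 CPM over all libraries, epithelial and endothelial markers to at most 3.35 CPM, and 8 fibroblast markers to at most 1.68 CPM in the polymer groups, 5.02 to 5.55 CPM in LPS and 10.5 to 11.7 CPM in untreated libraries. The LPS + POx-SA libraries all differed from each other, with a chi-square per degree of freedom of 44.4 (replicates 1 and 2), 76.4 (1 and 3) and 54.4 (2 and 3). In LPS, replicates 1 and 2 differed by 12.2 and replicate 3 from them by 52.9 and 69.7. The deviations of both replicates 3 from their group means correlated at 0.908 over 10055 genes. Counts of called histone genes without those libraries are given with the results.

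The 66 histone genes together were far lower in every LPS-treated group than in untreated cells. The LPS + PPLG-4V-SA libraries had a summed 49.6, 53.6 and 48.1 CPM, the LPS + PPLG-2V-SA libraries 36.5, 42.0 and 45.5 CPM, and the LPS + PPLG-SA libraries 72.3, 62.7 and 67.2 CPM. The 3 PPLG polymers thus gave the lowest sums, with no library in common with the range of LPS alone. The LPS + POx-SA libraries had 428, 356 and 447 CPM, each above every LPS library, which had 313, 177 and 315 CPM. All 15 stood below the untreated libraries, which had 3772, 3615 and 3448 CPM. By group means, the sum was 13.5-fold lower in LPS than in untreated libraries and 1.53-fold higher in LPS + POx-SA than in LPS. It was 5.32-fold lower in LPS + PPLG-4V-SA, 6.49-fold lower in LPS + PPLG-2V-SA and 3.98-fold lower in LPS + PPLG-SA than in LPS. As shares of all counts, histone genes made up 0.00416% to 0.00508% in LPS + PPLG-2V-SA libraries, the lowest, and 0.281% to 0.309% in untreated libraries, the highest. In bulk RNA, fewer cells expressing these genes and less RNA per cell cannot be told apart.

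**Figure D1:**
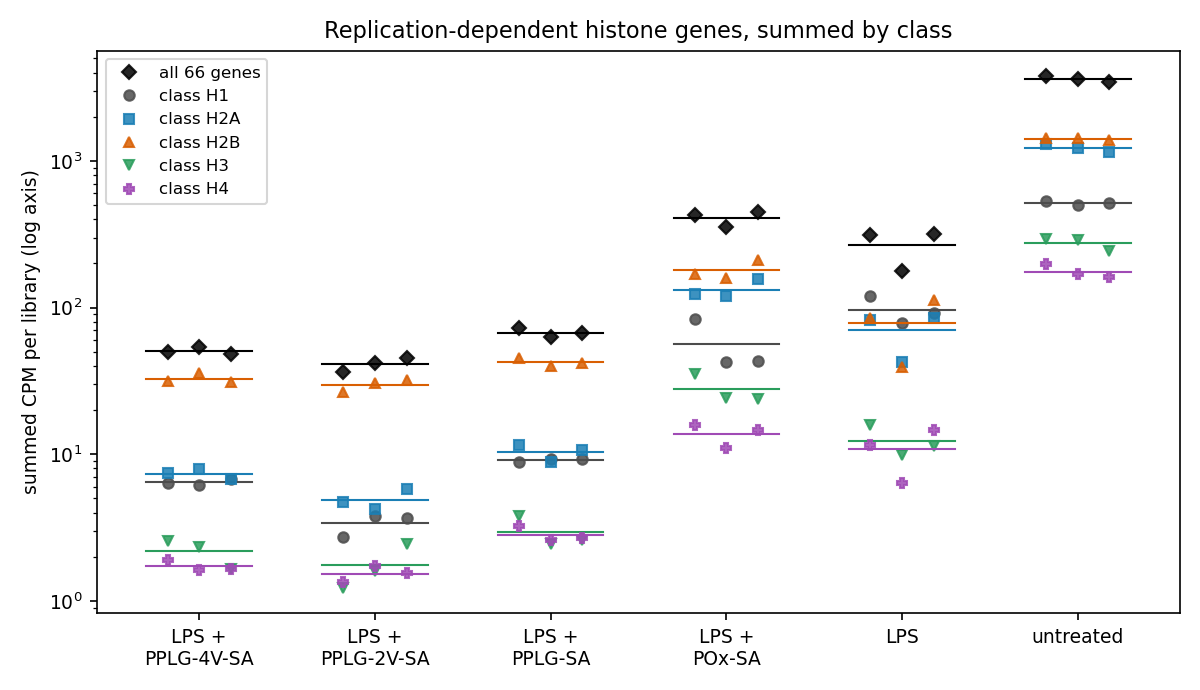
Summed CPM (vertical log axis) of all 66 histone genes and of each of the 5 classes in the 6 groups (horizontal axis). Each point is 1 library and each short horizontal line marks a group mean. Over the 66 genes the 9 PPLG libraries lie between 36.5 and 72.3 CPM, the LPS + POx-SA and LPS libraries between 177 and 447 CPM, and the untreated libraries between 3448 and 3772 CPM.

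The filter on low counts kept 40 of the 66 genes (5 H1, 8 H2A, 11 H2B, 7 H3 and 9 H4), among 13482 genes tested in all. The other 26 were too rare to test: 3 of them, H2ac1, H2bc1 and H4c17, had no count in any library. The untested genes summed to 1.08 CPM in LPS + PPLG-4V-SA, 1.06 in LPS + PPLG-2V-SA, 1.55 in LPS + PPLG-SA, 1.92 in LPS + POx-SA, 2.78 in LPS and 8.84 CPM in untreated libraries on average. Of the 40 tested genes, 17 would not have passed the filter without the untreated libraries. For them, except H2bc7, a difference from untreated cells was built in, wholly or in part. H2bc7 passed in 1 library each of LPS, LPS + POx-SA and untreated cells. The remaining 23 passed on the LPS-treated libraries alone and are counted separately below. Of these, 7 (H1f3, H1f4, H2ac7, H2bc6, H3c6, H4c12 and H4c8) passed in no PPLG library, so a lower level there than in LPS or LPS + POx-SA was favoured by the filter. The mean CPM was highest in untreated cells for 39 of the 40, against 27.9% of all genes tested, and for 38 of them every untreated library exceeded all 15 others, against 16.1% of all genes tested. H2bc7 was the exception for the mean, and H2bc7 and H1f5 for the libraries. Both belong to the 17 that would not have passed without the untreated libraries, so all of the 23 met both conditions. The lowest mean fell in a PPLG group for 34 genes (18 in LPS + PPLG-2V-SA, 13 in LPS + PPLG-4V-SA and 3 in LPS + PPLG-SA), in LPS for 5 and in LPS + POx-SA for 1.

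**Figure D2:**
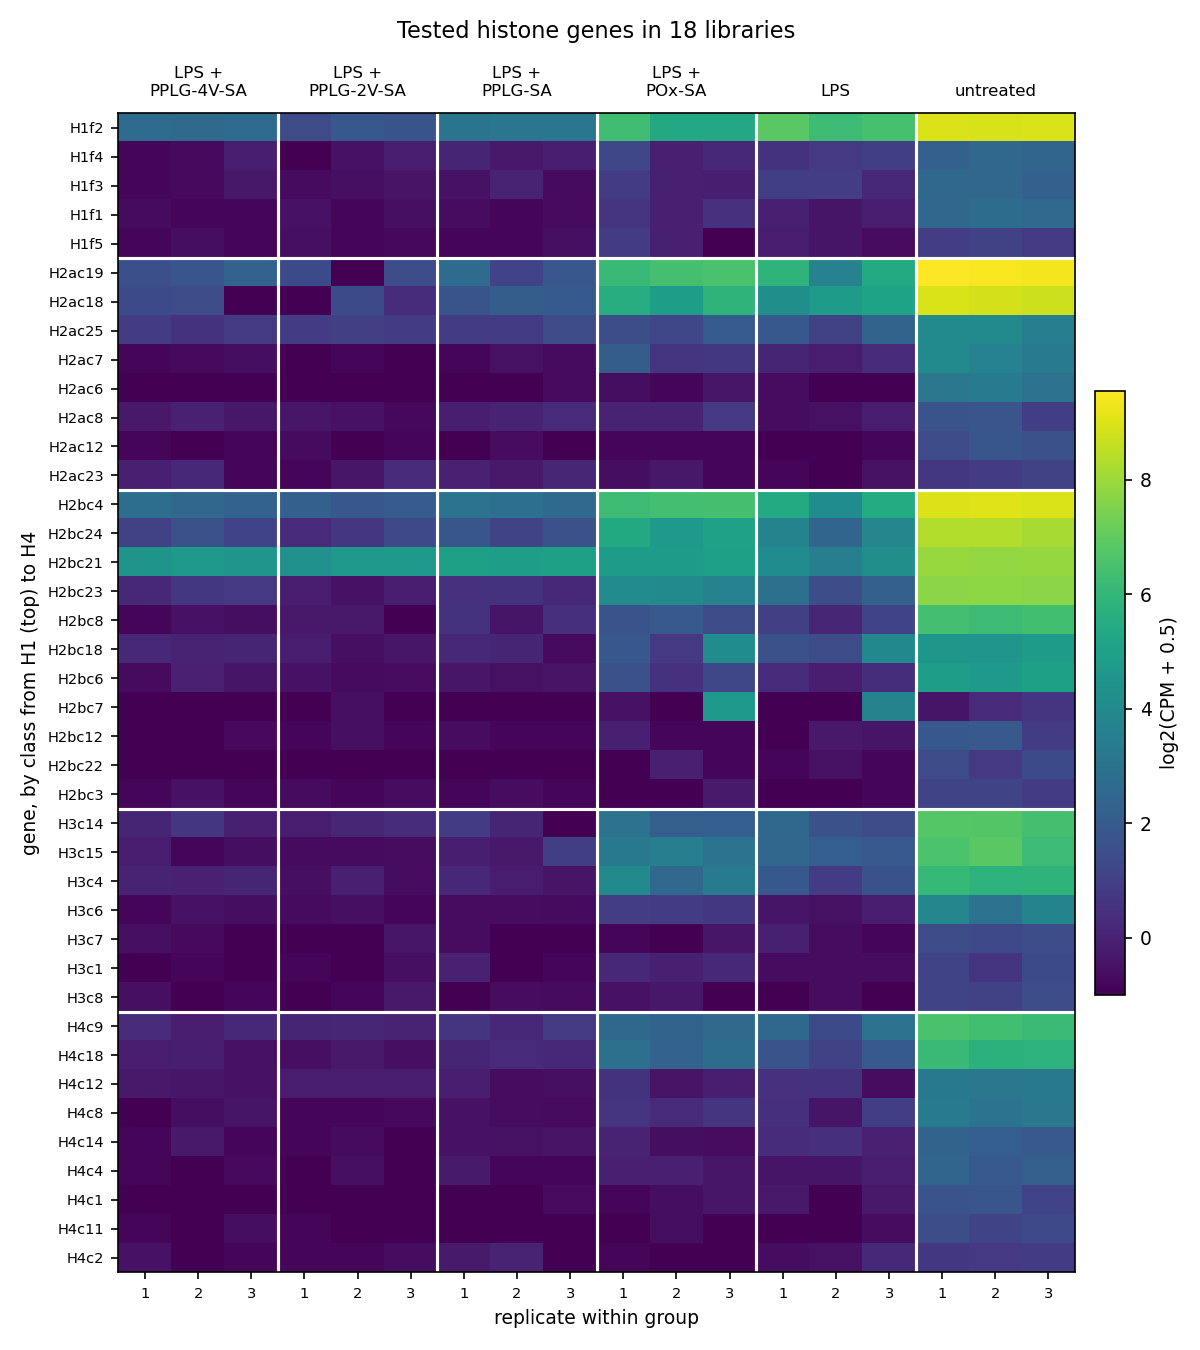
Levels of the 40 tested histone genes (rows, by class) in the 18 libraries (columns, by group), as log2(CPM + 0.5). The PPLG columns are the darkest and the untreated columns the brightest for most genes, while H2bc21 keeps 10.9 CPM or more in every column.

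Per length, the order of the genes differed between groups. On the authors' FPKM scale, which divides by gene length, H1f2 at 14.2 ± 0.83 (SD, n = 3) and H2bc4 at 13.5 FPKM led in LPS + PPLG-4V-SA cells, a gap smaller than that SD. In LPS + PPLG-2V-SA cells H2bc21 led with 10.2 ± 1.3 FPKM, ahead of H2bc4 at 9.50 FPKM by less than its SD, and in LPS + PPLG-SA cells H1f2 at 18.5 and H2bc4 at 15.4 FPKM led. In untreated cells H2ac19 was highest at 1480 ± 59 FPKM, followed by H2ac18 at 940 ± 51, H1f2 at 724 ± 30, H2bc4 at 703 ± 13 and H4c9 at 335 ± 25 FPKM, with H1f2 and H2bc4 within their spread of each other. H2bc21 stood only 13th there, at 71.3 ± 2.0 FPKM. H2bc21 is a long member: RefSeq gives it 2667 bases, and the deposited FPKM and counts imply 2606, where the median RefSeq length of the members is 491. It is not the only one, since the deposited values imply 2362 bases for H2bc6. For H2bc7 they imply 1958 bases, but RefSeq gives 448. The implied value rests on replicate 3 of LPS and of LPS + POx-SA, with 193 and 342 counts. In replicate 3 of LPS its 193 counts went with 6.15 FPKM, and in untreated replicate 3 its 9 counts went with 3.40 FPKM. The length of H2bc7 is thus uncertain.

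Histone genes of every class were lower after LPS alone. Of the 40 tested, 39 were lower in LPS than in untreated cells and none was higher (adjusted p below 0.05), where 28.4% of all genes tested were lower and 30.8% higher. All 39 fell at least 2-fold, as did 12.4% of all genes tested. The median log2 fold change was -3.92 over the 40 and -4.12 over the 23 genes that passed without the untreated libraries, all 23 of which were lower; the median over all genes tested was 0.02. The exception was H2bc7. The class sums, on the CPM scale, were 5.34-fold lower for H1, 17.6-fold for H2A, 18.0-fold for H2B, 22.3-fold for H3 and 16.3-fold for H4.

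Among the linker histones, H1f2 encodes a common somatic H1 subtype. It had 116, 75.9 and 89.4 CPM in LPS libraries against 519, 479 and 500 CPM in untreated libraries, a log2 fold change of -2.41 ± 0.20 (SE; adjusted p = 3.13e-08). H1f3 and H1f4 moved by like amounts, -2.09 ± 0.45 and -2.01 ± 0.52 on the log2 scale (adjusted p = 0.000715 and 0.00293). The groups did not overlap for H1f2, H1f3 or H1f4. H1f1 fell further, from a mean of 7.81 FPKM in untreated to 0.663 FPKM in LPS libraries, and H1f5 from 1.80 to 0.427 FPKM. Neither H1f1 nor H1f5 would have passed the filter without the untreated libraries.

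The H2A genes of the small cluster carried most H2A counts. H2ac18 and H2ac19 together had 76.9, 39.9 and 77.9 CPM in LPS libraries, against a mean of 1180 CPM in untreated libraries. Taken singly, H2ac19 had 58.2, 12.4 and 43.4 CPM in LPS against 754, 710 and 672 CPM in untreated libraries, and H2ac18 had 18.7, 27.4 and 34.5 CPM against 501, 472 and 434 CPM. The log2 fold changes were -4.23 ± 0.51 for H2ac19 (adjusted p = 1.85e-06) and -4.12 ± 0.47 for H2ac18 (adjusted p = 9.95e-07). H2ac25, a rarer member, changed less, by -2.17 ± 0.32 (adjusted p = 1.59e-05), with 3.23, 1.63 and 4.66 CPM in LPS against 16.3, 15.4 and 11.1 CPM in untreated libraries.

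Among the H2B genes was the member with the steepest fall of the 23. H2bc8 had 1.48, 0.587 and 1.66 CPM in LPS against 84.8, 74.9 and 81.9 CPM in untreated libraries, and H2bc24 had 12.7, 4.89 and 14.1 CPM against 321, 326 and 291 CPM. H2bc21, which encodes the H2BE variant known from mouse olfactory neurons, had 17.2, 10.9 and 17.9 CPM in LPS against 242, 230 and 236 CPM in untreated libraries. It is a member by its symbol, and whether its transcript ends in a stem-loop or a poly(A) tail was not measured. Its log2 fold change of -3.94 ± 0.15 (adjusted p = 6.43e-12) lay close to the median of the list, so with LPS alone it moved as the others did. H2bc7 had no such fall. It had 0, 0 and 12.8 CPM in LPS and 0.251, 0.701 and 1.01 CPM in untreated libraries, so that 1 library held all of its 193 LPS counts. H2bc18 was uneven in the counts of the same libraries, with 2.58, 2.15 and 14.6 CPM in LPS against 23.7, 22.0 and 27.5 CPM in untreated libraries. The authors' FPKM did not show that excess in replicate 3, with 8.79, 7.91 and 2.00 FPKM in the LPS libraries. The cause of this disagreement was not tested.

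The H3 and H4 genes showed the same direction in every tested member, 7 of 7 and 9 of 9. Among them, H3c1, H3c7, H3c8, H4c1, H4c2, H4c4, H4c11 and H4c14 would not have passed the filter without the untreated libraries. For these a fall was built in, though only in part for H4c14, which also passed in 2 LPS libraries. H3c4 had 3.29, 1.30 and 2.66 CPM in LPS against 66.6, 56.5 and 57.6 CPM in untreated libraries (log2 fold change -4.63 ± 0.34, adjusted p = 6.3e-09). H3c14 and H3c15, copies in the small cluster, differed by -4.86 ± 0.40 and -4.50 ± 0.28 on the log2 scale (adjusted p = 2.09e-08 and 1.31e-09), and their sum was 10.7, 6.58 and 5.59 CPM in LPS against 204, 220 and 162 CPM in untreated libraries. For H4, H4c18 had 2.71, 1.56 and 3.52 CPM in LPS against 70.6, 55.0 and 55.8 CPM in untreated libraries (log2 fold change -4.54 ± 0.24, adjusted p = 2.2e-10). No LPS library of H3c4 or H4c18 reached an untreated one. Without replicate 3 of LPS and of LPS + POx-SA, 41 histone genes passed the filter and all 41 were lower in LPS.

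LPS + POx-SA was the only polymer group with more genes above LPS than below it. Of the 40 tested, 14 were higher than in LPS, where 22.2% of all genes tested were higher, and 2 were lower, where 24.1% were. Among the 23 genes that passed without the untreated libraries, 11 were higher and 1 lower, with a median log2 fold change of 0.91, against 0.00 over all genes tested. Of these, H2ac7, H2bc6 and H3c6 passed in 3 LPS + POx-SA libraries each, in 1, 2 and 0 LPS libraries and in no PPLG library. The filter thus favoured a higher level in LPS + POx-SA for them. H1f3, H1f4 and H4c12 passed in more LPS than LPS + POx-SA libraries. With only these groups in the fit, 22 histone genes were tested and 8 called, all higher. H2B led with 6 of 11 genes higher, followed by 4 of 7 H3 genes, 2 of 8 H2A genes, 1 of 9 H4 genes and 1 of 5 H1 genes. In CPM sums the H2B genes were 2.28-fold higher, the H3 genes 2.24-fold and the H2A genes 1.90-fold higher, whereas the H1 genes were 1.71-fold lower. All 4 polymer comparisons share the 3 LPS libraries, so their results are not independent of each other.

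H2bc4 had 74.5, 84.7 and 87.1 CPM in LPS + POx-SA against 42.8, 17.2 and 45.2 CPM in LPS libraries, with no overlap (log2 fold change 1.23 ± 0.23, adjusted p = 0.000358). H2bc24 had 41.8, 24.9 and 32.8 CPM in LPS + POx-SA against 12.7, 4.89 and 14.1 CPM in LPS (1.65 ± 0.30, adjusted p = 0.000212), and H2bc23 had 16.8, 16.0 and 12.5 CPM against 7.04, 2.41 and 4.26 CPM (1.72 ± 0.24, adjusted p = 1.77e-05). All 3 H2B genes kept their groups apart. Among H3 genes, H3c4 had 15.6, 5.59 and 9.52 CPM in LPS + POx-SA against 3.29, 1.30 and 2.66 CPM in LPS (2.08 ± 0.33, adjusted p = 7.41e-05). H3c6, with 1.41, 1.28 and 1.13 CPM in LPS + POx-SA against 0.258, 0.196 and 0.399 CPM in LPS, had the largest rise called (2.13 ± 0.42, adjusted p = 0.000503); outside the untreated libraries it passed the filter only in LPS + POx-SA, so that rise was partly built in. In H4, H4c18 rose by 1.17 ± 0.24 (adjusted p = 0.000803), while H4c9 did not pass the test (0.10, 95% interval -0.51 to 0.71).

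H1f2 went the other way. It had 78.5, 40.5 and 41.4 CPM in LPS + POx-SA against 116, 75.9 and 89.4 CPM in LPS, a log2 fold change of -0.81 ± 0.20 (adjusted p = 0.00282). The ranges overlapped, since the highest LPS + POx-SA library stood above the lowest LPS library, and with only these groups in the fit the adjusted p was 0.0797. H1f2 made up 13.0% ± 4.76 of histone counts in LPS + POx-SA, 36.1% ± 7.35 in LPS and 13.8% ± 0.635 in untreated libraries (SD, n = 3 each). The other lower gene, H4c2, rested on 1 count in the LPS + POx-SA group against 15 in the LPS group, 13.4-fold lower with a 95% counting interval of 2.06 to 563. H2ac18 and H2ac19, the largest H2A genes, were not called singly (0.72, interval -0.19 to 1.63, and 1.11, interval 0.14 to 2.09). Their summed CPM was 116, 115 and 148 in LPS + POx-SA against 76.9, 39.9 and 77.9 in LPS, with no overlap. With the replicate number as a block, H2ac19 passed (log2 fold change 1.28) and H4c2 did not. The calls of H1f1, H2ac8, H2bc8 and H3c1 were each lost when at least 1 library was left out. Without replicate 3 of both groups, 12 genes were higher and 1 lower. LPS + POx-SA did not reach the untreated level: 38 of 40 genes were lower than in untreated cells (27.9% of all genes tested were) and none higher (30.4%). The summed level was 8.80-fold lower. For the 17 genes that would not have passed the filter without the untreated libraries, except H2bc7, a lower level was built in, wholly or in part. Over the other 23 the median log2 fold change was -3.22 and the highest -1.76, against a median of 0.03 over all genes tested.

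**Figure D3:**
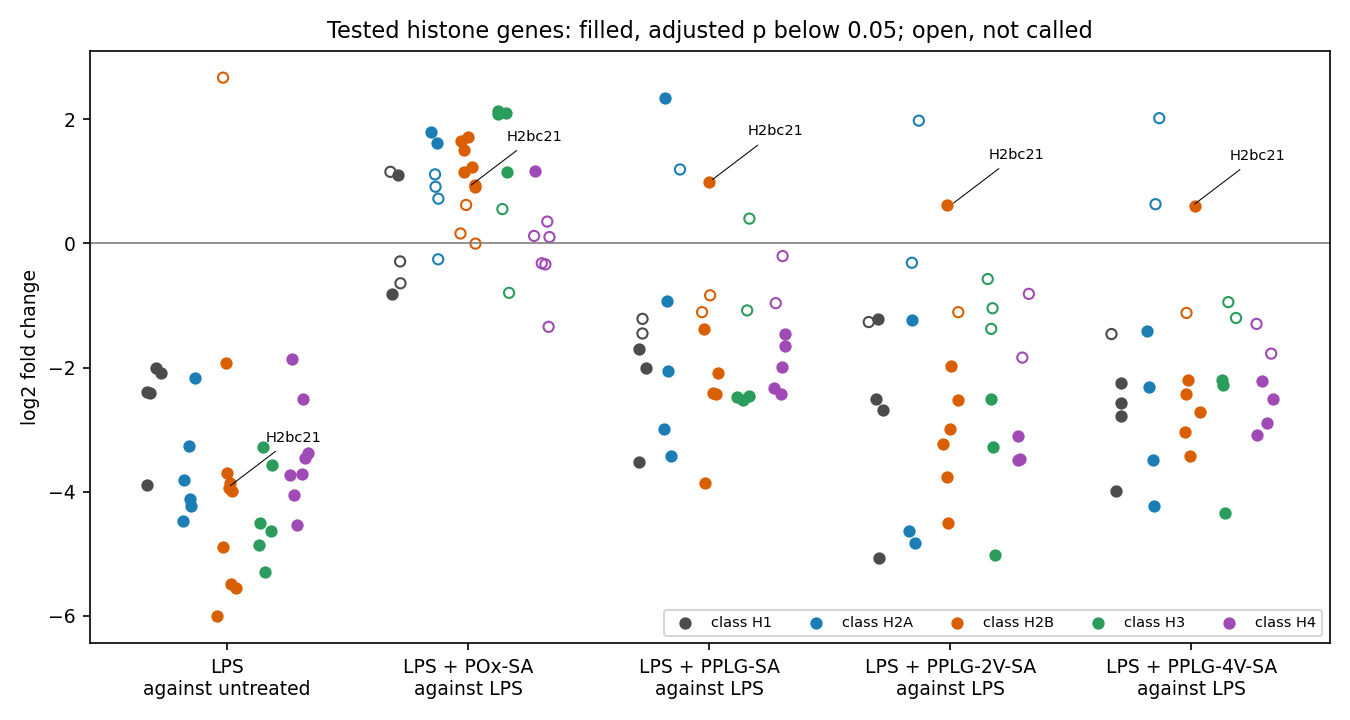
Log2 fold changes of single histone genes (points, coloured by class) in LPS against untreated cells and in each polymer group against LPS, fitted by edgeR. Genes at or under 3 counts in a group of the comparison are left out. The points of LPS against untreated lie below 0 except for H2bc7, those of LPS + POx-SA lie mostly above 0, and those of the PPLG groups mostly below it.

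With each of the 3 PPLG polymers, histone genes were lower than with LPS alone. In LPS + PPLG-4V-SA against LPS, 23 of 40 genes were lower (27.1% of all genes tested) and 1 higher (28.0%). In LPS + PPLG-2V-SA, 23 were lower (30.2%) and 1 higher (30.8%), and in LPS + PPLG-SA 21 were lower (30.7%) and 2 higher (29.2%). Among the 23 genes that passed without the untreated libraries, 18, 19 and 18 were lower in LPS + PPLG-4V-SA, LPS + PPLG-2V-SA and LPS + PPLG-SA, with median log2 fold changes of -2.51, -3.10 and -2.09. Among the 16 that passed in at least 1 PPLG library, 14, 14 and 13 were lower and 1, 1 and 2 higher, with medians of -2.81, -3.25 and -2.42. The 2 higher with PPLG-SA include H2ac23, for which the filter favoured a rise. Medians over all genes tested were 0.02, 0.03 and 0.00 in size. Calls came from every class: in LPS + PPLG-4V-SA and in LPS + PPLG-2V-SA alike, 4 of 5 H1, 4 of 8 H2A, 6 of 11 H2B, 3 of 7 H3 and 6 of 9 H4 genes were lower. With only the groups compared in the fit, 16 (PPLG-4V-SA), 15 (PPLG-2V-SA) and 16 (PPLG-SA) histone genes were tested and 15, 14 and 13 were lower, with 1 higher in each. In each of the PPLG-4V-SA and PPLG-2V-SA comparisons, 11 of the 40 genes had at most 3 counts in a group.

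H1f2 fell the furthest of the H1 genes. It had 6.03, 5.73 and 5.94 CPM in LPS + PPLG-4V-SA, 2.24, 3.27 and 2.81 CPM in LPS + PPLG-2V-SA and 7.90, 8.28 and 8.39 CPM in LPS + PPLG-SA, against 75.9 CPM or more in every LPS library. The log2 fold changes were -3.99 ± 0.23 (adjusted p = 2.63e-10), -5.07 ± 0.25 (1.62e-11) and -3.51 ± 0.23 (8.48e-10) in that order of groups. H1f3 was also called in all 3 comparisons, at -2.78, -2.69 and -2.00. H1f4 was called with PPLG-4V-SA (-2.57) and PPLG-2V-SA (-2.51), and missed the threshold with PPLG-SA (-1.45, interval -2.75 to -0.16, adjusted p = 0.0504).

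Of the H2A genes, the H2ac18 and H2ac19 pair summed to 4.58, 5.35 and 4.44 CPM in LPS + PPLG-4V-SA, 2.07, 2.05 and 3.13 CPM in LPS + PPLG-2V-SA and 8.80, 5.50 and 6.56 CPM in LPS + PPLG-SA, against 39.9 CPM or more in every LPS library. Singly, H2ac19 fell by 3.50, 4.64 and 3.42 and H2ac18 by 4.23, 4.83 and 2.98 on the log2 scale in those groups. H2ac25 fell less, with log2 fold changes of -1.41, -1.23 and -0.93; the last was lost without replicate 1 or 3 of LPS or replicate 1 or 2 of LPS + PPLG-SA (adjusted p = 0.0556 to 0.178). A rise of H2ac23 was called with PPLG-SA (2.34 ± 0.96, adjusted p = 0.0451), on 0.489, 0.323 and 0.608 CPM in LPS + PPLG-SA against 0.0646, 0 and 0.200 CPM in LPS libraries. Outside the untreated libraries H2ac23 passed the filter only in PPLG libraries, so a rise over LPS was favoured by the filter. The call of H2ac23 was lost with the replicate block and without replicate 1 or 2 of LPS or replicate 1 or 3 of LPS + PPLG-SA (adjusted p = 0.0785 to 0.138).

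The H2B genes split. H2bc4 had 6.48, 5.02 and 4.54 CPM in LPS + PPLG-4V-SA, 4.25, 3.16 and 3.76 CPM in LPS + PPLG-2V-SA and 7.55, 6.66 and 5.59 CPM in LPS + PPLG-SA, each below every LPS library (42.8, 17.2 and 45.2 CPM). Its log2 fold changes were -2.71 ± 0.26, -3.23 ± 0.27 and -2.41 ± 0.26 (adjusted p = 1.68e-07, 1.96e-08 and 5.85e-07). H2bc21 was the opposite case. It had 21.8, 25.2 and 22.5 CPM in LPS + PPLG-4V-SA, 19.9, 25.2 and 25.2 CPM in LPS + PPLG-2V-SA and 31.4, 28.8 and 31.2 CPM in LPS + PPLG-SA, all above the LPS libraries (17.2, 10.9 and 17.9 CPM). It rose by 0.60 ± 0.15, 0.61 ± 0.15 and 0.99 ± 0.15 on the log2 scale (adjusted p = 0.00218, 0.00149 and 1.75e-05).

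H2bc21 made up a large part of the histone counts in the PPLG groups, with 45.9% ± 1.67 of them in LPS + PPLG-4V-SA, 56.6% ± 2.96 in LPS + PPLG-2V-SA and 45.3% ± 1.66 in LPS + PPLG-SA, against 7.04% ± 0.81 in LPS + POx-SA, 5.78% ± 0.338 in LPS and 6.55% ± 0.266 in untreated libraries (SD, n = 3 each). In LPS + POx-SA it had 27.2, 28.3 and 30.6 CPM, also above every LPS library (0.90 ± 0.15, adjusted p = 7.67e-05). In all 4 polymer groups it remained below untreated cells, by -3.35 (PPLG-4V-SA), -3.33 (PPLG-2V-SA), -2.95 (PPLG-SA) and -3.04 (POx-SA) on the log2 scale. The neighbours of H2bc21 in the small cluster in RefSeq are H2ac20 and H3c15. H2ac20 was too rare to test, with 1 count in LPS. It had 7 counts in LPS + PPLG-4V-SA, 6 in LPS + PPLG-2V-SA and 4 in LPS + PPLG-SA. H3c15 fell in the PPLG groups. It had 0.391, 0.0540 and 0.155 CPM in LPS + PPLG-4V-SA and 0.112, 0.111 and 0.136 CPM in LPS + PPLG-2V-SA, against 5.16, 3.98 and 3.39 CPM in LPS, with log2 fold changes of -4.35 ± 0.47 and -5.02 ± 0.51 (adjusted p = 5.76e-07 and 1.74e-07). With its copy H3c14 the sum was 0.95, 1.13 and 0.619 CPM in LPS + PPLG-4V-SA and 0.503, 0.721 and 0.907 CPM in LPS + PPLG-2V-SA, against 10.7, 6.58 and 5.59 CPM in LPS. Of the 7 tested small-cluster genes, 6 were lower and H2bc21 higher in each PPLG comparison; of the 31 in the large cluster, 15 (PPLG-4V-SA), 15 (PPLG-2V-SA) and 13 (PPLG-SA) were lower. Whether the clusters differ was not tested. Without H2bc21, the tested genes summed to 26.2 ± 1.45 CPM in LPS + PPLG-4V-SA, 16.9 ± 1.85 in LPS + PPLG-2V-SA, 35.4 ± 4.12 in LPS + PPLG-SA and 250 ± 74.7 CPM in LPS (SD, n = 3). They were thus 9.56-fold, 14.8-fold and 7.07-fold lower than in LPS by group means.

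H2bc7 was called lower with PPLG-4V-SA and PPLG-SA, at least 78.2-fold and at least 64.8-fold below LPS (with the group's sum set to a floor of 3 counts; adjusted p = 0.0416 and 0.047), but replicate 3 of LPS held all LPS counts of that gene, and without that library the log2 fold change was 0. For H3, H3c4 had 0.503, 0.486 and 0.568 CPM in LPS + PPLG-4V-SA, 0.168, 0.444 and 0.136 CPM in LPS + PPLG-2V-SA and 0.629, 0.388 and 0.243 CPM in LPS + PPLG-SA, against 1.30 CPM or more in every LPS library. It fell by 2.20, 3.28 and 2.53 on the log2 scale (adjusted p = 0.000584, 3.53e-05 and 0.000324). For H4, H4c9 had 0.726, 0.378 and 0.619 CPM in LPS + PPLG-4V-SA, 0.559, 0.610 and 0.544 CPM in LPS + PPLG-2V-SA and 1.05, 0.647 and 1.22 CPM in LPS + PPLG-SA, against 5.36, 2.09 and 7.38 CPM in LPS, again with no overlap. Its log2 fold changes were -3.09, -3.10 and -2.33 (adjusted p = 2.62e-06, 1.66e-06 and 2.79e-05). These levels are near the limit of detection: 1 count was 0.0559 CPM in replicate 1 of LPS + PPLG-4V-SA. Without replicate 3 of LPS and of LPS + POx-SA, 22, 22 and 18 of 41 tested genes were lower and 2, 2 and 3 higher in LPS + PPLG-4V-SA, LPS + PPLG-2V-SA and LPS + PPLG-SA against LPS.

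**Figure D4:**
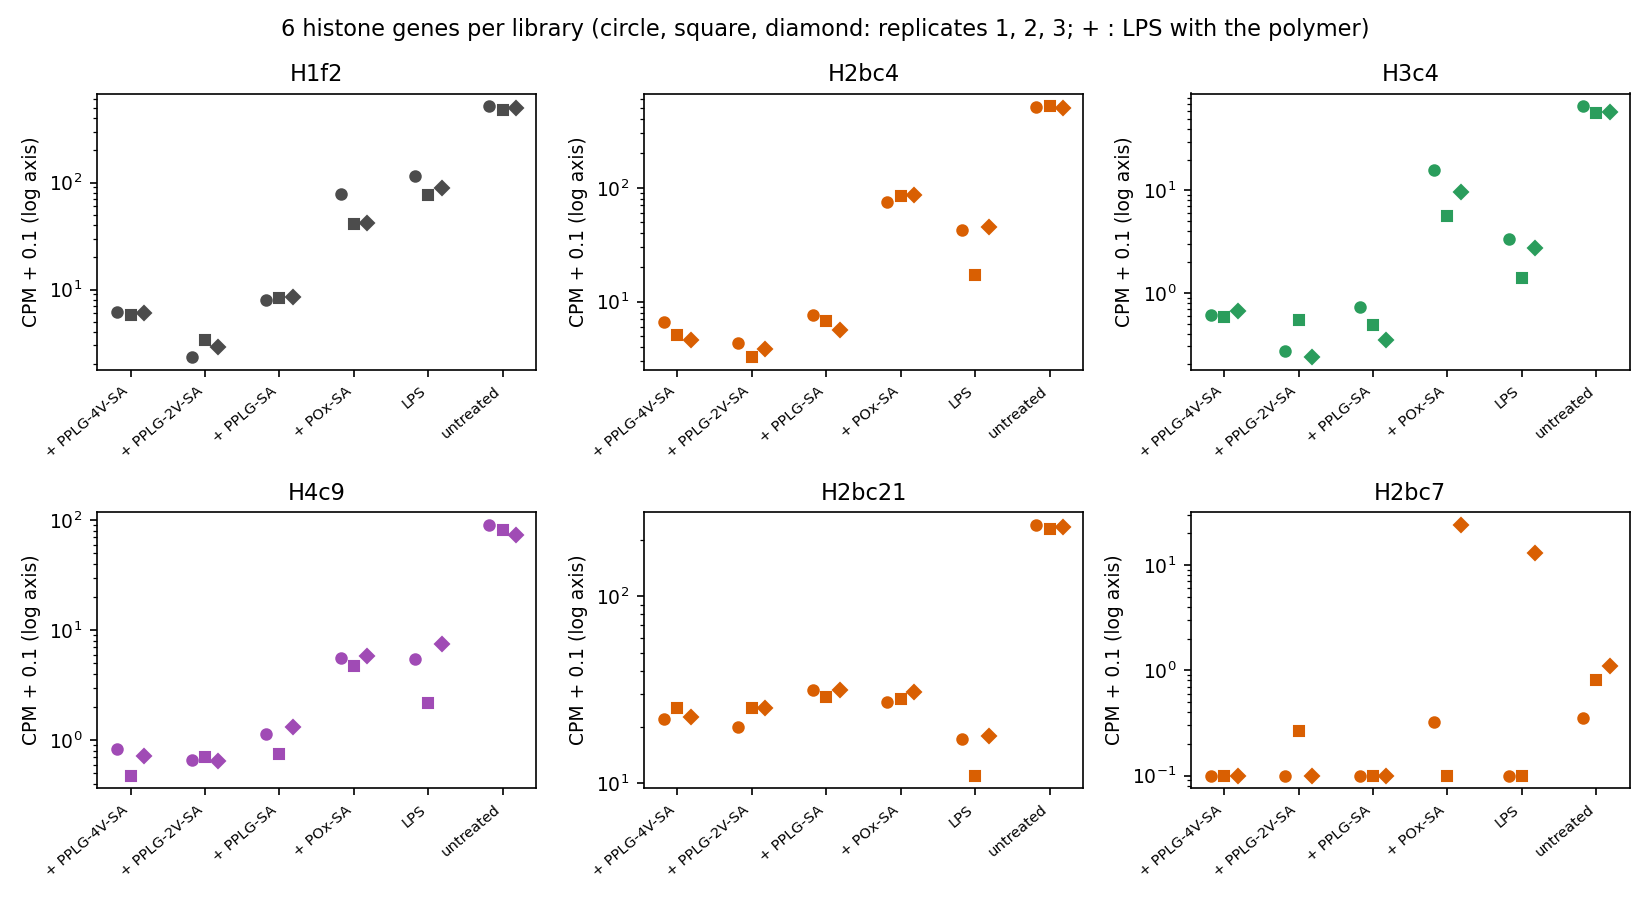
CPM + 0.1 (vertical log axis) of H1f2, H2bc4, H3c4, H4c9, H2bc21 and H2bc7 in every library of the 6 groups; circles, squares and diamonds are replicates 1, 2 and 3. H1f2, H2bc4, H3c4 and H4c9 are lowest in the PPLG groups, H2bc21 lies above LPS in all 4 polymer groups, and H2bc7 is high in replicate 3 of LPS and of LPS + POx-SA alone.

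Set against untreated cells, which these comparisons share, 39 of 40 genes were lower in LPS + PPLG-4V-SA (33.6% of all genes tested), 39 in LPS + PPLG-2V-SA (35.8%) and 38 in LPS + PPLG-SA (32.8%). None was higher, where 36.7%, 38.2% and 35.1% of all genes tested were. For the 17 genes that would not have passed the filter without the untreated libraries, except H2bc7, a lower level was built in, wholly or in part. Over the other 23 the median log2 fold changes were -6.61, -7.36 and -6.39. The highest values among these 23 were -1.79, -1.83 and -1.47, so all were negative. Medians over all genes tested were 0.05, 0.04 and 0.04. Summed levels were 71.6-fold, 87.4-fold and 53.6-fold lower over the 66 genes, and 129-fold, 200-fold and 95.1-fold lower over the tested genes without H2bc21. The steepest called falls were H2bc8 at -9.05 with PPLG-4V-SA, H3c15, uncertain as a copy, at -9.52 with PPLG-2V-SA and H2bc23 at -7.98 with PPLG-SA on the log2 scale.

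The polymers were also compared with each other, without knowledge of whether their doses were matched. LPS + PPLG-SA lay below LPS + POx-SA for 21 of 40 genes (29.5% of all genes tested were lower) and above it for none (28.3% were higher), with a median of -3.03 over the 23. H3c4 differed by -4.61 (adjusted p = 1.1e-07) and H2bc23 by -4.15. H2bc21 did not pass the test there, with a difference of 0.09 (interval -0.21 to 0.39). Between the PPLG polymers fewer genes were called. LPS + PPLG-2V-SA lay below LPS + PPLG-SA for 4 genes (13.2% of all genes tested) and above it for none (14.7%): H1f2 by -1.56 (interval -2.09 to -1.03, adjusted p = 0.000223), H3c15 by -2.56 (-4.00 to -1.12, 0.0101), H4c18 by -1.50 (-2.49 to -0.51, 0.0248) and H2bc4 by -0.82 (-1.43 to -0.21, 0.0426). DESeq2 called 8 genes in that pair, all lower. H1f2 was called whichever library of the pair was left out. H3c15 was lost without replicate 3 of LPS + PPLG-SA (-1.55, adjusted p = 0.128), the library in which its copy H3c14 was at 0 CPM. The sum of both was 0.503, 0.721 and 0.907 CPM in LPS + PPLG-2V-SA against 1.75, 0.905 and 1.46 CPM in LPS + PPLG-SA, and these ranges overlap. Among the others, H4c18 was lost without any of 4 libraries (0.0635 to 0.0884) and H2bc4 without any of 5 (0.062 to 0.139).

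LPS + PPLG-4V-SA and LPS + PPLG-SA had no histone gene called apart by edgeR, where 0.579% of all genes tested were lower and 1.08% higher; 4 had an unadjusted p below 0.05, and DESeq2 called 2. The intervals leave room for modest differences in H1f2 (-0.47, interval -0.96 to 0.02) and H2bc4 (-0.30, -0.89 to 0.29) and for larger ones in H3c15 (-1.89, -3.21 to -0.57, adjusted p = 0.124) and H2bc8 (-2.21, -3.68 to -0.73, adjusted p = 0.11). LPS + PPLG-4V-SA lay above LPS + PPLG-2V-SA for 2 genes (7.53% of all genes tested) and below it for none (4.47%). These were H1f2, by 1.09 (interval 0.55 to 1.62, adjusted p = 0.00862), and H2bc23, by 1.56 (0.54 to 2.59, 0.0435). H1f2 was lost without replicate 1 of LPS + PPLG-2V-SA (0.96, adjusted p = 0.0515), and H2bc23 without any of 5 libraries (0.0882 to 0.15).

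Genes that act with the histones did not fall as lists under LPS. In LPS against untreated cells, where 30.8% of all genes tested were higher and 28.4% lower, 44 of 51 tested DNA replication genes were higher and 1 lower (median log2 fold change 1.19), among them Mcm10 (3.37), a replication initiation factor, and Mcm5 (1.68), a subunit of the replicative helicase. Of 29 histone chaperone genes, 21 were higher and 4 lower, with Nasp, a histone chaperone, higher by 1.83. Slbp, whose product binds the stem-loop of histone messages, rose by 0.67 (adjusted p = 1.14e-05), and Npat, the activator of histone gene transcription, did not pass the test (-0.15). With the PPLG polymers, 33 (PPLG-4V-SA), 37 (PPLG-2V-SA) and 31 (PPLG-SA) of the 51 replication genes were higher than in LPS, and 1, 2 and 3 were lower, where 28.0%, 30.8% and 29.2% of all genes tested were higher and 27.1%, 30.2% and 30.7% lower. Slbp was again higher, by 0.55, 0.72 and 0.30. In LPS + POx-SA, 5 replication genes were higher and 28 lower than in LPS (median -0.46), where 22.2% of all genes tested were higher and 24.1% lower.

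The counts of factors that process and degrade histone messages lay nearer to those shares of all genes. In LPS against untreated cells, 17 of 41 were higher and 7 lower, and in LPS + PPLG-4V-SA, LPS + PPLG-2V-SA, LPS + PPLG-SA and LPS + POx-SA against LPS, 12, 15, 13 and 12 were higher and 9, 9, 11 and 7 lower. Upf1, a helicase required for histone mRNA decay, fell by 0.76 with LPS and again by 0.66, 0.79 and 0.71 with PPLG-4V-SA, PPLG-2V-SA and PPLG-SA. Eri1, the exonuclease that trims the stem-loop, did not pass the test in LPS against untreated (0.16) and was higher than in LPS with the same polymers, by 0.41, 0.79 and 0.41.

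Replication-independent and variant histones, whose transcripts are mostly polyadenylated (H2ax also gives a stem-loop form), were called under LPS about as often as all genes tested (30.8% higher and 28.4% lower). Of 10 tested, 4 were higher and 3 lower in LPS than in untreated cells, with a median of 0.13. H3f3b, which encodes the replacement histone H3.3, rose by 1.21, and H3f3a, which encodes the same protein, fell by 0.88. Against LPS, 6, 5, 5 and 5 of the 10 were lower and 3, 3, 3 and 0 higher in LPS + PPLG-4V-SA, LPS + PPLG-2V-SA, LPS + PPLG-SA and LPS + POx-SA. Of all genes tested, 27.1%, 30.2%, 30.7% and 24.1% were lower and 28.0%, 30.8%, 29.2% and 22.2% higher in those comparisons. H3f3b fell by 2.67, 2.83, 2.41 and 1.79 there, and H1f0, the replacement linker histone, by 2.10, 2.28, 1.94 and 1.80. The lists were described by counts and medians only, and the difference between them was not tested.

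**Figure D5:**
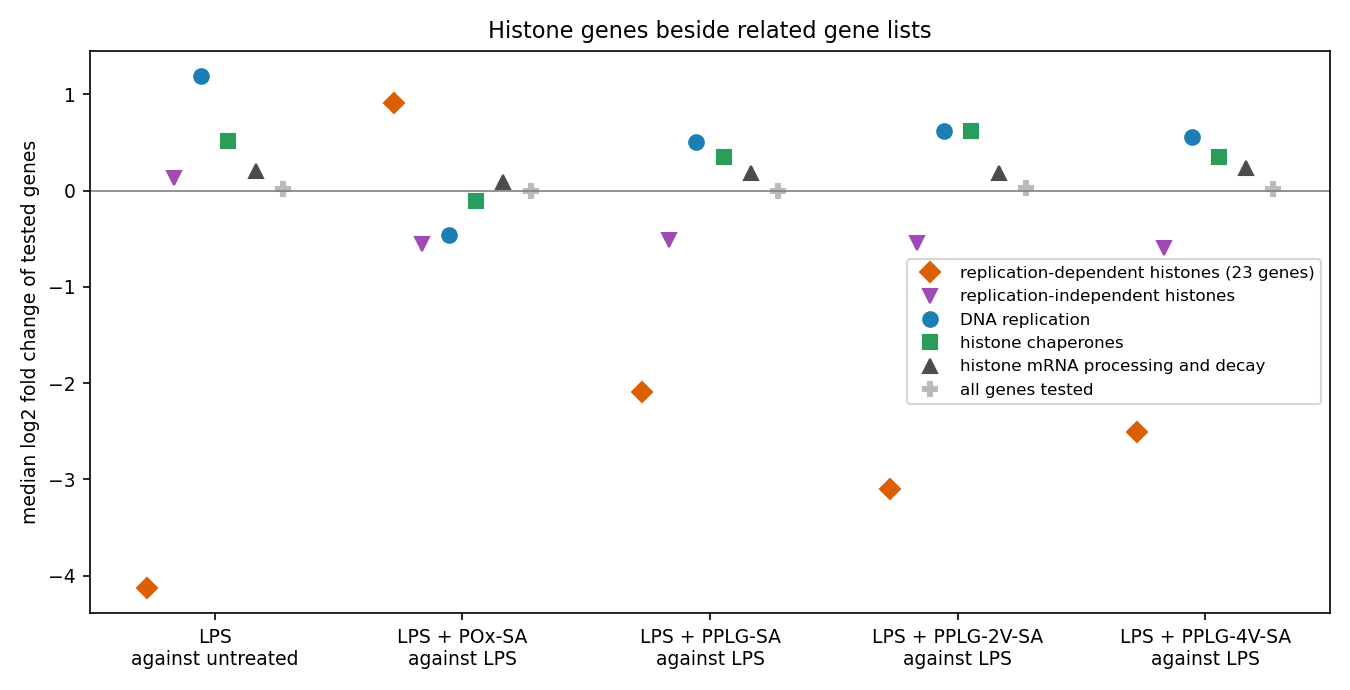
Median log2 fold change of the replication-dependent histone genes that passed the filter without the untreated libraries (23 genes) and of the lists of related genes, in LPS against untreated and in each polymer group against LPS. In LPS against untreated the histone median is -4.12 while the DNA replication median is 1.19, and in LPS + POx-SA against LPS the histone median is 0.91 while the DNA replication median is -0.46.

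Too few other transcripts listed as lacking a poly(A) tail were present to compare with. Of 31 listed, 3 were in the table and 2 passed the filter, the nuclear long noncoding RNAs Malat1 and Neat1. Counts per gene do not separate forms with and without a tail, so neither serves here as a control without a tail. Malat1 and Neat1 were lower in LPS than in untreated cells, by -2.87 and -1.36 on the log2 scale. Malat1 was higher than in LPS with all 4 polymers, by 1.77 (PPLG-4V-SA), 1.54 (PPLG-2V-SA), 2.58 (PPLG-SA) and 1.18 (POx-SA), and Neat1 lower, by -1.36, -1.99, -1.18 and -1.01. The tailed share of histone messages was not measured, and its part in the results was not tested.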

How the data were processed

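The 18 RNA-seq libraries of RAW264.7 cells fell into 6 groups of 3 by their labels. Per the submitters' processing notes the genome build was GRCm39, and CASAVA was used; no source used here names the aligner, counting tool, annotation, strand setting or library kit. The deposited counts are whole reads per gene symbol, not normalized, from 9755591 to 19759549 per library. The FPKM values, scaled by the authors for gene length and library size, cover 22384 genes, 62 members among them, and were used for levels between genes and as an alternative. No column lacked a sample (0 columns of no sample).

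CPM and log2 fold changes used TMM scaling (factors 0.812 to 1.15). Genes passing edgeR's filter (minimum count 10, minimum total 15) were fitted in 1 model over all 18 libraries without a block (12 residual degrees of freedom), tested by edgeR's quasi-likelihood test with Benjamini-Hochberg adjustment over 13482 genes, and called at an adjusted p below 0.05. R 4.3.3, edgeR 4.0.16, limma 3.58.1 and DESeq2 1.42.0 were used, after tests on simulated data. Intervals around ratios of low counts are exact 95% intervals and, like floors of 3 counts, cover counting error only. Fold changes of genes at or under that floor are not given from the model. Alternatives were DESeq2 and its size factors, plain totals, other filters, fits of only the groups compared, a replicate block, limma on log2(FPKM + 1) and log2(FPKM + 0.1), leaving out libraries, and a 2-fold rule.

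Genes named were the 3 most abundant tested members of each class, the members with the smallest and largest called fold change in each comparison, members named as exceptions after their values were seen, up to 4 called genes of each related list, and a set panel. Members and lists were chosen with earlier results of these data known. Replicate numbers come from the sample titles. Deviations from the group means correlated between same-numbered libraries over 10055 genes in some comparisons. The values were 0.276, 0.301 and 0.908 between LPS + POx-SA and LPS and 0.151, 0.363 and 0.483 between LPS + PPLG-2V-SA and LPS. In all, 12 of 39 same-numbered pairs were over 0.1. Of 18 libraries, 6 correlated best, outside their own group, with a library of their own number. A pairing of these groups is possible but is not stated by the labels. The replicate block was therefore an alternative only.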

Additional observations from a re-analysis of the deposited data

How the results depend on the processing

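No histone gene given in full reversed its call, and counts of called histone genes stayed within 1.5 times the main count except as follows. With only the groups compared in the fit, where fewer histone genes were tested, 8 were called in LPS + POx-SA, 15 in LPS + PPLG-2V-SA and 14 in LPS + PPLG-SA, each against LPS, and 2 between LPS + PPLG-4V-SA and LPS + PPLG-SA. With limma on log2(FPKM + 1), 15 were called in LPS + PPLG-SA against LPS and 1 between LPS + PPLG-4V-SA and LPS + PPLG-2V-SA; on log2(FPKM + 0.1), 14 in LPS + PPLG-4V-SA against LPS, 7 between LPS + PPLG-2V-SA and LPS + PPLG-SA and 1 between LPS + PPLG-4V-SA and LPS + PPLG-2V-SA. Between LPS + PPLG-2V-SA and LPS + PPLG-SA, DESeq2 called 8, no filter gave 7, and leaving out replicate 3 of LPS and of LPS + POx-SA gave 8. Between LPS + PPLG-4V-SA and LPS + PPLG-SA those 3 settings gave 2, 1 and 2. The cause was not tested.

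Leaving out each replicate in turn gave 37 to 41 called genes in LPS against untreated, 23 to 26, 24 to 27, 17 to 22 and 13 to 15 in LPS + PPLG-4V-SA, LPS + PPLG-2V-SA, LPS + PPLG-SA and LPS + POx-SA against LPS, and 38 to 41, 38 to 41, 37 to 40 and 36 to 39 in the same groups against untreated. It gave 19 to 23 in LPS + PPLG-SA against LPS + POx-SA, 2 to 5 in LPS + PPLG-2V-SA against LPS + PPLG-SA, 0 in LPS + PPLG-4V-SA against LPS + PPLG-SA and 0 to 2 in LPS + PPLG-4V-SA against LPS + PPLG-2V-SA. With the replicate block, 15 genes were higher and 1 lower in LPS + POx-SA against LPS (H2ac19 gained, H4c2 lost), 1 higher and 24 lower in LPS + PPLG-2V-SA (H2bc7 gained) and 1 higher and 21 lower in LPS + PPLG-SA (H2ac23 lost); PPLG-SA against POx-SA had 20, and counts in the other comparisons did not change.

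The rise of H2bc21 over LPS was called under all 16 alternatives in every polymer group, at 0.40 to 0.78 with PPLG-4V-SA, 0.42 to 0.83 with PPLG-2V-SA, 0.80 to 1.11 with PPLG-SA and 0.71 to 1.05 with POx-SA. Plain library totals moved the median of all genes by 0.29 in LPS against untreated and by up to 0.24 in the polymers against LPS. Levels below 1 CPM, and the division of counts between copies, limit what can be said of single members.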
